A study of Mus musculus with 4 samples.

Results

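The 9 genes Ngfr, L1cam, Sox10, Vtn, Aspa, Gfra3, Egr2, Erbb3 and Pmp22, known as markers of olfactory ensheathing cells and Schwann cells were followed in astrocyte cultures from 4 brain regions. Each gene was taken from the probe sets that the platform annotation assigns to that gene alone. This gave 17 of the 22690 probe sets on the array, for 9 of 12393 named genes. The cultures came from the olfactory bulb, the subventricular zone (a germinal layer beside the lateral ventricle), the ventral mesencephalon (the floor of the midbrain) and the hippocampus of CD-1 mice, an outbred stock, at postnatal day 3. All were labelled primary astrocytes, untreated and kept in medium with 10% serum; shaking at 200 rpm enriched them for astroglia. Tissue was pooled over pups, given as 4 littermates in one place of the design text and 3 in another. Each region had 1 array, numbered as the first biological replicate, so no difference below has a replicate check, no p-value was computed, and region, culture and array cannot be told apart.

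Olfactory ensheathing cells are glia of neural crest origin that wrap the axons of olfactory sensory neurons from the nasal lining to the outer layer of the bulb. They share many genes with Schwann cells, the glia of peripheral nerves. In both, the transcription factor Sox10 maintains glial identity and activates other glial genes, among them the neuregulin receptor gene Erbb3, and the low-affinity neurotrophin receptor encoded by Ngfr is a classical surface marker of ensheathing and non-myelinating Schwann cells. Egr2 (Krox20) drives the myelinating programme of Schwann cells, of which the peripheral myelin gene Pmp22 is a part.

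The bulb culture stood out. Signals are the deposited linear intensities, and values below a floor of 122.1, the median over all probe sets and arrays, were raised to it before any fold was taken. Where the lower value sits at the floor the fold is a lower bound, given as "at least". Signals of different genes are not read as relative amounts, since probe sets differ in efficiency. Sums over marker lists add the signals as deposited, so that probe sets of high signal lead them. The table has no detection calls, so a signal below the floor is not thereby absent. All 9 genes lay above the floor in the olfactory bulb culture, while the other cultures had fewer: Egr2 and Pmp22 from the subventricular zone (2), these and Ngfr from the ventral mesencephalon (3), and Pmp22 from the hippocampus (1). Over all genes the numbers above the floor were alike, with 6929 in the bulb, 6905 for the subventricular zone, 6879 for the ventral mesencephalon and 7317 for the hippocampus. The 2% trimmed means of the arrays were 400.1 to 400.2.

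The 6 genes Ngfr, L1cam, Sox10, Vtn, Aspa and Gfra3 were at least 2-fold higher in the bulb than in each other region (6 of 9, where 1.87% of the 7987 genes that exceeded the floor on 1 or more arrays were), and none was 2-fold lower than in each (1.55% of genes). The bulb was the only culture above the floor for 6 of 9 as well, with Erbb3 in place of Ngfr; this held for 1.9% of genes. Egr2 was higher in the ventral mesencephalon, where 1.57% of genes were, and lower in the hippocampus (0.488%). Pmp22 had its highest signal in the hippocampus without being 2-fold above the bulb. The other counts were 0 of 9: higher (1.28% of genes) or lower (1.01%) in the subventricular zone, lower in the ventral mesencephalon (0.563%), higher in the hippocampus (2.49%), and above the floor in one of these 3 cultures alone (1.53%, 1.5% and 3.41%). With Erbb3, 7 of the 9 genes had their highest signal in the bulb, as 28.7% of genes did, and Egr2 and Pmp22 did not. The 9 genes were chosen with earlier results of these data known, so their counts beside the shares of all genes are a description and no test. In bulk samples such as these, fewer cells of a type and less RNA per cell cannot be told apart.

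**Figure D1:**
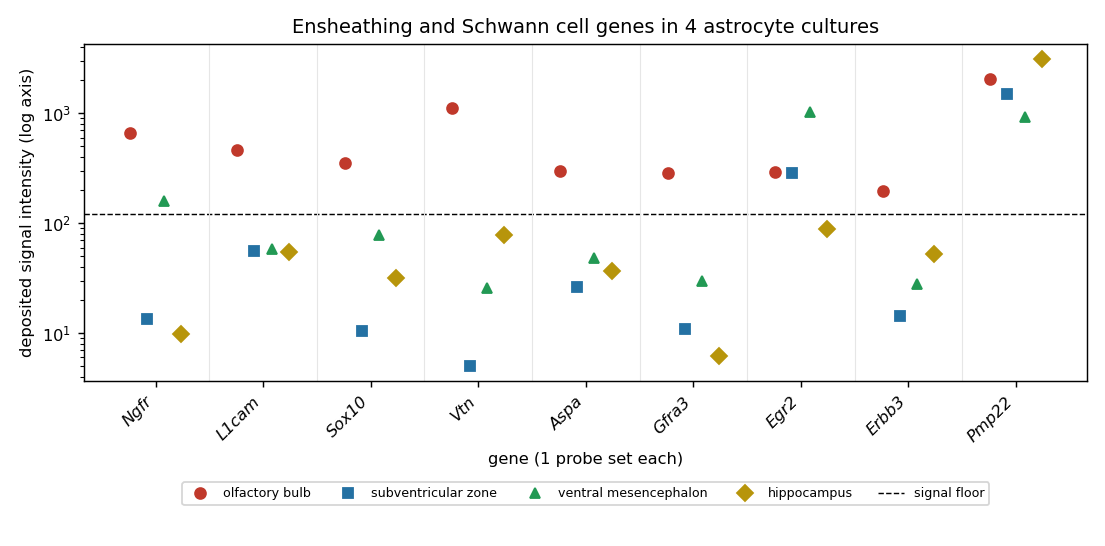
Deposited signal intensity (log axis) of the 9 genes, 1 probe set each, in the 4 cultures; each point is 1 array and the dashed line is the floor of 122.1. For 7 genes the olfactory bulb point is the highest, Egr2 is highest in the ventral mesencephalon (1026) and Pmp22 for the hippocampus (3108.5).

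The start regions of the bulb-high genes are shown because these genes share a pattern of signal across the cultures. RefSeq windows (build GRCm38.p6) of 250 bases before to 50 after the gene start were matched for 6 of the 9 genes; Sox10, Gfra3 and Erbb3 were not matched. Those of the 4 matched bulb-high genes are given 5′ to 3′ on the gene's strand, with CpG dinucleotides in capitals. They lie at chr11:95587649-95587948 (minus strand, Ngfr), chrX:73880741-73881040 (minus strand, the first of 2 L1cam windows), chr11:78498870-78499169 (plus strand, Vtn) and chr11:73324588-73324887 (minus strand, Aspa).
Ngfr: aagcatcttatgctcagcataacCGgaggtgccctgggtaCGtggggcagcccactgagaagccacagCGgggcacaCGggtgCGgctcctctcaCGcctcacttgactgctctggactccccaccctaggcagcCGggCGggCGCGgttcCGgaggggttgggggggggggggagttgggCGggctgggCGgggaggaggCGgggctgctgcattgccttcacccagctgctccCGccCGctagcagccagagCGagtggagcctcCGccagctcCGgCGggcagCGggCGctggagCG
L1cam: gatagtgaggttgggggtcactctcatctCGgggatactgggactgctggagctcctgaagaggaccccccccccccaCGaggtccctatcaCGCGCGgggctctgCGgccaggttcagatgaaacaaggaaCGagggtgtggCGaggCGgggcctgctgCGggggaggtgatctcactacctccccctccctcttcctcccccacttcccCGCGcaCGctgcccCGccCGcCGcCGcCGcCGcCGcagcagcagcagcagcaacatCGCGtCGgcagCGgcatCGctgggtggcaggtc
Vtn: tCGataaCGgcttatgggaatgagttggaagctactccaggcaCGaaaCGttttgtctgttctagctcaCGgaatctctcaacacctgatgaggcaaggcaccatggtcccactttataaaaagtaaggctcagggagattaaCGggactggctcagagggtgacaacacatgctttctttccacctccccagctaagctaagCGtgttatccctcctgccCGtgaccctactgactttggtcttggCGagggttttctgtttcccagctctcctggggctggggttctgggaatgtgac
Aspa: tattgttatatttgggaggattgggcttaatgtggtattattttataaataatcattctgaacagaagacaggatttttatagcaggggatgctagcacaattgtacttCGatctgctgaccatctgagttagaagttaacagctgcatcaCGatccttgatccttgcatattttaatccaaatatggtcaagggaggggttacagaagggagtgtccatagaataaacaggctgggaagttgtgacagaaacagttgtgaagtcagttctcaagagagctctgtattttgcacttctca

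These windows had little in common in base composition. Ngfr and L1cam had 23 and 25 CpG in 300 bases and 71.7% and 69.3% G or C, Vtn had 9 CpG and 51.7%, and Aspa 2 CpG and 39.0%, beside medians of 7 CpG and 52.7% over all 32851 windows. A count of 20 or more CpG was found in 26.5% of all windows. The core words of Sox factors, ACAAAG and ACAATG (different words, which cannot coincide), were searched on both strands and occurred in none of the 14 windows of the 6 genes, while 28.6% of all windows held at least 1. The EGR words GCGGGGGCG and GCGTGGGCG, also on both strands, occurred in none of the 14 and in 3.47% of all windows. The 14 windows are not separate sequences, since windows of the same gene can overlap. Of the 14, 5 are of Egr2 and 4 of Pmp22, which are not among the bulb-high genes. The counts beside the shares of all windows are therefore no test. This says that these letters are not in these windows, and nothing about the factors.

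Among the receptors, Ngfr, the p75 receptor that binds all neurotrophins, had a signal of 662 in the olfactory bulb, against 13.5 for the subventricular zone, 158 for the ventral mesencephalon and 9.8 for the hippocampus. It was 4.2-fold higher in the bulb than in the ventral mesencephalon, the one other culture above the floor, and at least 5.4-fold higher than in either remaining culture. It had 3 probe sets, and the other 2 lay below the floor on all arrays; one read 117 in the bulb, 2.2 for the subventricular zone, 53.2 for the ventral mesencephalon and 4.1 for the hippocampus, the same order of bulb and midbrain, and the other 11.3, 1.8, 13.7 and 1.3.

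Gfra3, the co-receptor for the GDNF-family ligand artemin, had a signal of 285 in the olfactory bulb, against 10.8 for the subventricular zone, 30 for the ventral mesencephalon and 6.1 for the hippocampus. The bulb was at least 2.3-fold higher than each, with all other cultures below the floor. Erbb3, the receptor through which neuregulin supports Schwann cell survival, read 198 in the bulb, against 14.3 for the subventricular zone, 27.7 for the ventral mesencephalon and 52.8 for the hippocampus. The bulb value was at least 1.6-fold higher, short of 2-fold because the floor bounds it, and the other Erbb3 probe set read 1.2 to 1.6 on the 4 arrays.

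Vtn and L1cam encode proteins of the cell surface and its surroundings. Vtn, the secreted adhesion protein vitronectin, had the widest gap of the 9 genes. It read 1110 in the olfactory bulb, against 5.0 for the subventricular zone, 25.5 for the ventral mesencephalon and 78.2 for the hippocampus, at least 9.1-fold higher than each. Its other probe set showed the same side, with 416 in the bulb against 15.1, 18.5 and 19.3 in the same order of regions, at least 3.4-fold. L1cam, the neural adhesion molecule L1 that also sits on non-myelinating glia, read 465 in the bulb, against 55.5 for the subventricular zone, 57.7 for the ventral mesencephalon and 54.8 for the hippocampus. This was at least 3.8-fold higher in the bulb, while the other L1cam probe set was below the floor on all arrays (20.8 in the bulb, 5.8 to 14.7 elsewhere).

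Sox10 and Egr2 are the transcription factors of the set, and they went different ways. The Sox10 probe set of highest signal read 355 in the olfactory bulb, against 10.4 for the subventricular zone, 78.2 for the ventral mesencephalon and 31.6 for the hippocampus, at least 2.9-fold higher in the bulb. A second read 136.5 in the bulb and 39.9 to 44.2 elsewhere, at least 1.1-fold. The third read 40.1 in the bulb, 3.9 for the subventricular zone, 24.7 for the ventral mesencephalon and 3.1 for the hippocampus, below the floor throughout. All 3 probe sets had their highest signal in the bulb.

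Egr2 read 1026 for the ventral mesencephalon, against 291 in the olfactory bulb, 287.5 for the subventricular zone and 89.1 for the hippocampus. It was 3.5-fold higher there than in the bulb and 3.6-fold higher than in the subventricular zone. The hippocampus was at least 2.4-fold below each other culture. The other Egr2 probe set read 608 for the ventral mesencephalon, against 121.5 in the bulb, 226 for the subventricular zone and 43.3 for the hippocampus, so both placed the midbrain highest, by 2.7-fold over the next region in this case.

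Aspa, which encodes the enzyme that splits N-acetylaspartate and is best known from oligodendrocytes, read 301.5 in the olfactory bulb, against 26.4 for the subventricular zone, 48.3 for the ventral mesencephalon and 36.4 for the hippocampus, at least 2.5-fold higher in the bulb. Pmp22, a membrane protein of peripheral myelin that many cell types outside nerve also express, was above the floor in every culture. It read 3108.5 for the hippocampus, against 2044 in the bulb, 1509 for the subventricular zone and 924.5 for the ventral mesencephalon. The hippocampus was 1.5-fold above the bulb, 2.1-fold above the subventricular zone and 3.4-fold above the ventral mesencephalon, and the bulb 2.2-fold above the ventral mesencephalon.

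**Figure D2:**
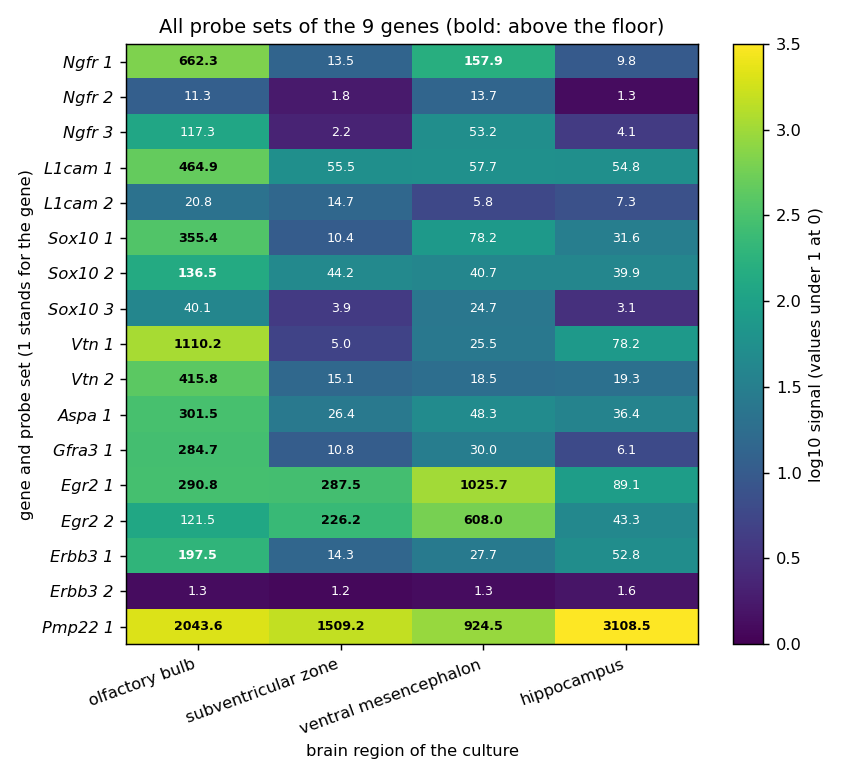
Signals of all 17 probe sets of the 9 genes (rows, printed as numbers and coloured by log10) in the 4 cultures (columns); bold numbers are above the floor. Of the 12 probe sets above the floor on at least 1 array, 9 had their highest signal in the olfactory bulb, the others being both of Egr2 and that of Pmp22.

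Set against one region at a time, the bulb was 2-fold or more higher for 6 of the 9 genes than the subventricular zone (8.39% of genes), for 7 than the ventral mesencephalon (5.53%) and for 7 than the hippocampus (5.23%). It was 2-fold or more lower for none against the subventricular zone (9.0%), for Egr2 against the ventral mesencephalon (6.46%) and for none against the hippocampus (8.69%). These 3 comparisons share the bulb array. The median log2 difference over the 9 genes was 1.30 in each, beside 0.00, 0.01 and 0.00 over all 7987 genes. Against the mean of the other regions, the median log2 contrast of the 9 genes was 1.30 in the bulb, -0.43 for the subventricular zone, -0.44 for the ventral mesencephalon and -0.51 for the hippocampus, beside -0.02, -0.02, -0.06 and 0.01 over all genes. Without the bulb array only Ngfr, Egr2 and Pmp22 stayed above the floor, and the median was taken over these alone. It was then 0.37 for the ventral mesencephalon and -0.19 for the hippocampus, values of a different set of genes. Since 6 of the 9 passed the floor through the bulb alone, the sign of these medians follows partly from the floor. A median-based SD of 0.27 between 2 probe sets of the same gene (log2 contrast, 1972 genes) describes genes with both above the floor on all arrays; none of the 9 is among them, and probe sets of Vtn and Sox10 differed by more. The bulb contrasts of the 2 Vtn probe sets, both above the floor in the bulb, were 3.18 and 1.77, and those of the 2 Sox10 probe sets above it 1.54 and 0.16.

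How far the bulb count of 6 depends on the floor and on the probe sets was measured. With the floor raised to the 70th percentile (signal 360.4) it was 1, Vtn, since Sox10, Aspa and Gfra3 then lay at the floor everywhere; 1.57% of genes were higher in the bulb under it. With each gene averaged over its probe sets it was 3, Vtn, Aspa and Gfra3, and the bulb gaps of L1cam, Ngfr and Sox10 were 0.96, 0.69 and 0.57 on the log2 scale (1.41% of genes). With the floor at the 30th percentile (25.2), Erbb3 joined the 6 (2.2%).

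**Figure D3:**
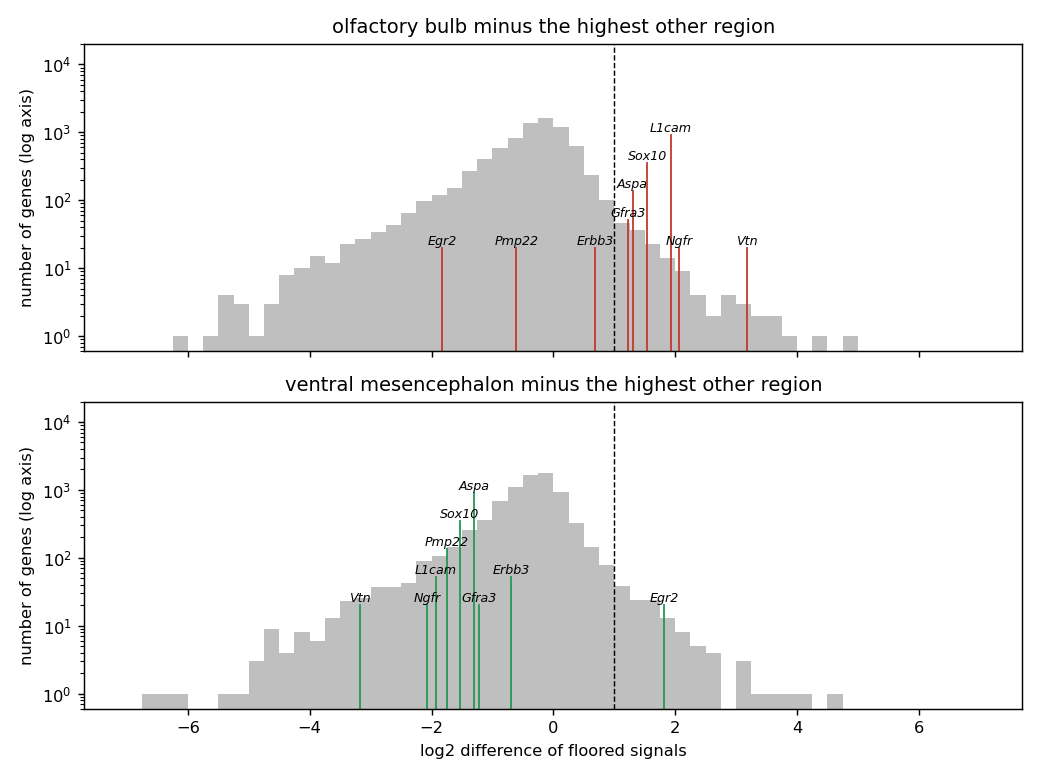
Histograms over the 7987 genes of the log2 difference between a region and the highest of the other 3 (x axis), with the number of genes on a log axis, for the olfactory bulb above and the ventral mesencephalon below; labelled lines mark the 9 genes and the dashed line 2-fold. Vtn (3.18), Ngfr (2.07), L1cam (1.93), Sox10 (1.54), Aspa (1.30) and Gfra3 (1.22) lie past the line for the bulb, and Egr2 (1.82) for the ventral mesencephalon.

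The ligands and partner receptors of these genes were counted in the same way. Of all genes, 1.87% were higher and 1.55% lower in the bulb. In lists this short a count of 0 lies near that share and is no result about a list. Of 10 measured neurotrophin genes and receptors 5 were above the floor and 0 were 2-fold higher in the bulb than in each other region. Bdnf, a neurotrophin that Ngfr binds, read 134.5 in the bulb, against 598 for the subventricular zone, 1145 for the ventral mesencephalon and 122 for the hippocampus. Its receptor gene Ntrk2 was 3.9-fold higher in the hippocampus (3787) than in the bulb (973), and the sorting receptor Sort1, which pairs with p75, ran from 228 for the ventral mesencephalon to 775 for the hippocampus.

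Of 10 measured genes of the neuregulin and ErbB group 4 were above the floor, with 1 higher and 1 lower in the bulb. Egfr, the receptor of EGF, was the higher one, with 1071.5 in the bulb against 442 for the ventral mesencephalon, a 2.4-fold difference. Hbegf, a ligand of Egfr, was the lower one, 420 in the bulb against 1235 for the hippocampus, a 2.9-fold difference. Erbb2, the kinase partner that ErbB3 needs to signal, was close to the floor everywhere (143 in the bulb, 129 for the subventricular zone, 117.5 for the ventral mesencephalon and 139 for the hippocampus), and Erbb4 was below it on all arrays. Nrg1 was not analysed here.

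In the GDNF family all 10 listed genes were measured, 6 were above the floor and 0 were higher in the bulb. Artn, the ligand that Gfra3 binds, was just above the floor in the subventricular zone (126.5) and read 41.9 in the bulb. Ret, the signalling receptor for which Gfra3 is the co-receptor, was below the floor in all 4 cultures. Gdnf was at least 3.2-fold higher in the ventral mesencephalon (396) than in each other culture, the bulb reading 78.5.

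Of 10 measured relatives and partners of L1cam 9 were above the floor. Alcam, an adhesion molecule, was 3.3-fold higher in the bulb (4237.5) than in the ventral mesencephalon (1278), and the ankyrin gene Ank3 2.0-fold (383 against 188). The cytoskeletal linker gene Ezr was 2.2-fold lower in the bulb (582) than in the ventral mesencephalon (1289). The closest relatives of L1cam lay elsewhere: Nrcam was 4.4-fold higher in the subventricular zone (2428) than in the hippocampus (554), with 307 in the bulb, and Chl1 was below the floor in the bulb (56.3) and 146 to 218 in the other cultures.

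Of 8 measured receptors and partners of vitronectin 5 were above the floor and 0 were higher in the bulb. Itgav, the integrin chain shared by most vitronectin receptors, was nearly even, with 2968 in the bulb and 2204 to 2597 elsewhere. Itgb5, one of the chains it pairs with, read 1758 in the bulb and 1135 to 2032 elsewhere.

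Among 8 measured transcription factors and neural crest genes grouped with Sox10, 5 were above the floor and 2 were higher in the bulb, both of the AP-2 family of neural crest, skin and meningeal factors. Tfap2b read 1289 in the bulb, against 2.1 for the subventricular zone, 11.6 for the ventral mesencephalon and 53.9 for the hippocampus, at least 10.6-fold higher. Tfap2a read 484 in the bulb, against 23.5, 67.6 and 45.4 in the same order, at least 4.0-fold. Sox9, the SoxE factor of astrocytes and progenitors, went the other way, with 356 in the bulb, against 1208 for the subventricular zone, 605 for the ventral mesencephalon and 1623 for the hippocampus. Pax3 and Foxd3, early neural crest factors, were below the floor on all arrays.

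For the myelin side, none of the 9 measured Egr relatives and partners (5 above the floor) was higher in any region. Egr1, the immediate early relative of Egr2, read 12062 for the ventral mesencephalon, against 6292 in the bulb, 11875 for the subventricular zone and 3552 for the hippocampus, and the corepressor genes Nab1 and Nab2 varied little (1184 to 1591 and 348 to 614). Pou3f1, the factor that precedes Egr2 in Schwann cells, was below the floor on all arrays. Of 13 measured Schwann and myelin genes 4 were above the floor and 0 were higher in the bulb. Cnp, a myelin enzyme, was 2.0-fold higher in the hippocampus (3286) than in the subventricular zone (1608), and Mbp reached 159 for the hippocampus and 107 in the bulb.

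All 4 measured relatives of Pmp22 were above the floor, and they were split. Emp3 was 2.1-fold higher in the bulb (4158) than in the hippocampus (1988.5). Emp2 was 3.7-fold lower in the bulb (182) than in the ventral mesencephalon (679), and Emp1 2.2-fold lower in the bulb (361) than in the subventricular zone (791). Around Aspa, 4 of 6 measured genes of N-acetylaspartate and acetate handling were above the floor and 0 were higher in the bulb. Slc13a3, which carries N-acetylaspartate into cells, read 186.5 in the bulb, against 494 for the subventricular zone, 39.4 for the ventral mesencephalon and 248 for the hippocampus.

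**Figure D4:**
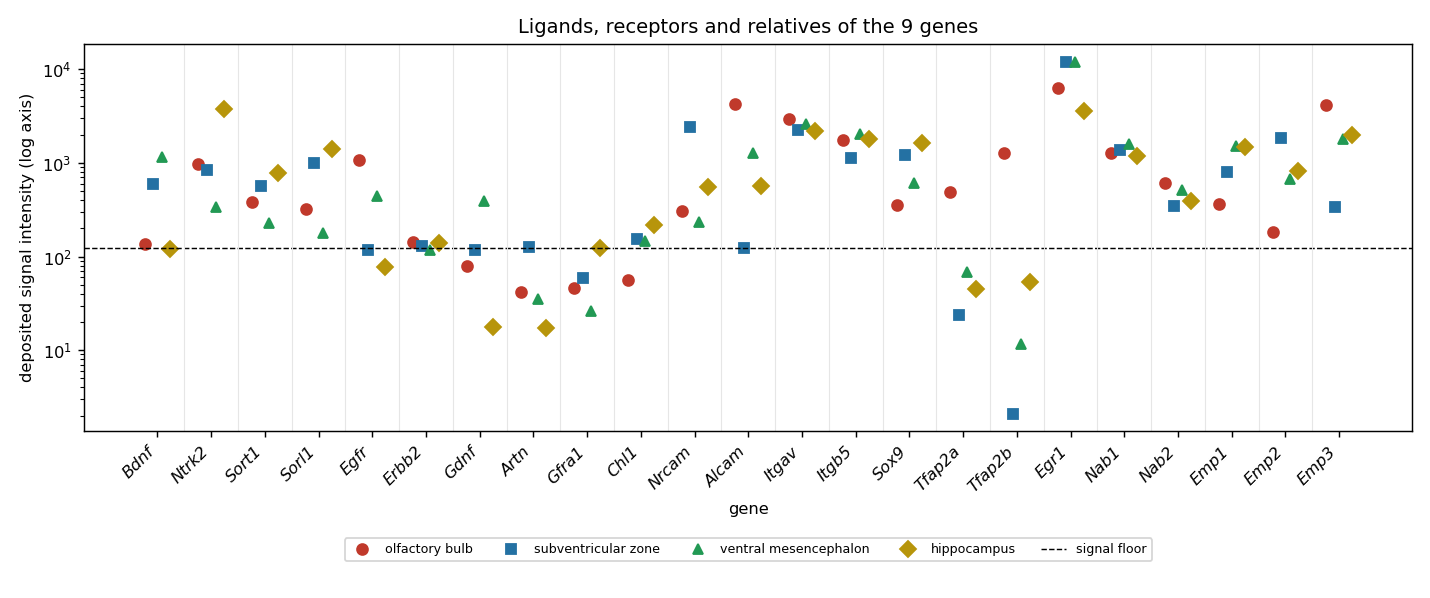
Deposited signal intensity (log axis) of 23 ligands, receptors and relatives of the 9 genes in the 4 cultures; each point is 1 array and the dashed line is the floor. Tfap2a (484) and Tfap2b (1289) are the genes above the floor in the olfactory bulb alone, while Bdnf, Sox9, Nrcam and Emp2 have their highest points in other cultures.

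Further ensheathing markers were divided. Of 10 measured further ensheathing markers, all above the floor somewhere, 5 had their highest signal in the bulb (28.7% of genes). There 0 were 2-fold above every other culture (1.87% of genes) and 1 was lower (1.55%). The lower one was Fabp7, a fatty acid-binding protein of ensheathing glia and radial glia, with 1250 in the bulb against 4522 for the ventral mesencephalon, a 3.6-fold difference. Npy, a neuropeptide of ensheathing cells, was 2.2-fold higher in the hippocampus (295) than in the bulb (135), and the calcium-binding protein gene S100b was near equal in the bulb (277) and hippocampus (269). Frzb, a Wnt inhibitor found in ensheathing cells, read 55.4 in the bulb, below the floor. Apod, a lipid carrier, had its highest signal in the bulb, 7938 against 4502 for the ventral mesencephalon and 4276 for the hippocampus. Cdh11 read 4908 in the bulb against 2487 for the ventral mesencephalon, a log2 gap of 0.98, just short of 2-fold. Matn2 and Cnn2 were also highest in the bulb, with gaps of 0.42 and 0.26. Cdh2 was lowest in the bulb, 897 against 1750 for the ventral mesencephalon, a log2 difference of -0.96. It was 2.1-fold higher in the subventricular zone (4692) than in the hippocampus (2189). Lgals1 was highest in the subventricular zone (15425), with 13379.5 in the bulb. Set side by side, 7 of the 9 genes and 5 of the 10 further markers were highest in the bulb, 6 and 0 of them by 2-fold or more, and the genes are called here by their own names rather than by a cell type.

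Among markers of other cell types, the fibroblast and meningeal list had its highest sum in the bulb, while the microglial and astrocyte lists had theirs in the hippocampus. The 12 measured fibroblast and meningeal markers summed to 54494 in the bulb, against 6983 for the subventricular zone, 40283 for the ventral mesencephalon and 21445 for the hippocampus, with 11 of 12 above the floor in the bulb, 7 for the subventricular zone and 11 in either remaining culture. The 14 microglia and macrophage markers summed to 32668 in the bulb, against 539, 343 and 34506 in the same order. The 10 astrocyte markers summed to 23888 in the bulb, against 24136, 13714 and 34619, with 9 above the floor in the bulb. A sum is led by its strongest probe sets, and the first 2 of these sums hide opposite differences. Beside the subventricular zone, Gja1 (9010 against 2505), Gjb6, Aldoc, Gfap and Glul were higher in the bulb. Aldh1l1 (311 against 5106), Aqp4 (1574.5 against 4916), Slc1a3 (706 against 2533) and Acsbg1 (340 against 917) were lower in the bulb. Set against every other culture, Gjb6 was 2-fold higher in the bulb (1313 against 148 for the hippocampus, 8.9-fold). Aldh1l1 was 2-fold lower (311 against 1711 for the ventral mesencephalon, 5.5-fold). Slc1a2 was below the floor on all arrays. Among the 12 fibroblast and meningeal markers, 2 were 2-fold higher in the bulb than in each other culture, where 1.87% of genes were. These were Foxc2 (4041, 5.5-fold over the ventral mesencephalon) and Ogn (6417, 3.6-fold over the hippocampus). Lum was 2.8-fold higher in the ventral mesencephalon (1048) than in the hippocampus, with 127.5 in the bulb. Thy1 was lowest in the bulb (250) and highest in the hippocampus (1047). The part of these cells in the result was not tested.

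Of other cells that express Sox10, the oligodendrocyte lineage genes Olig2 and Olig1 were low in the bulb. Olig2 read 7.5 in the bulb, against 244 for the subventricular zone, 16 for the ventral mesencephalon and 241 for the hippocampus. Olig1 read 171 in the bulb, 3.6-fold lower than in the ventral mesencephalon (621), and Mog, Mobp, Mag and Cspg4 were below the floor on all arrays. The 11 measured lineage markers summed to 3702.5 in the bulb, 4500.5 for the subventricular zone, 1333 for the ventral mesencephalon and 4007 for the hippocampus. Most of the bulb sum was the claudin gene Cldn11 (3051.5, 9.5-fold above the hippocampus), which meningeal cells also express. Of 7 measured melanocyte markers, Tyr, Tyrp1, Dct, Pmel and Slc45a2 were below the floor on all arrays. Mitf was above it on each and Kit in the bulb (273) and hippocampus (129). Both had their highest signal in the bulb, as 28.7% of genes did. Kit was 2.1-fold higher there than in the hippocampus, and 1.87% of genes were 2-fold above each other culture. Mitf read 271 in the bulb and 157 to 208 elsewhere. The 11 neuronal markers summed to 631 in the bulb, 4764 for the subventricular zone, 1600.2 for the ventral mesencephalon and 1060 for the hippocampus, with Omp, the marker of mature olfactory sensory neurons, below the floor on all arrays. The 11 endothelial and mural markers summed to 10885, 12804, 12868 and 11714.5 in the same order of regions. Most of each sum was Acta2 (9878, 10977, 11576 and 9301). Pecam1, Kdr, Cldn5, Tek, Abcc9, Kcnj8 and Myh11 were below the floor on all arrays. Against the ventral mesencephalon, Rgs5 was 4.0-fold higher and Cnn1 5.9-fold lower in the bulb.

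**Figure D5:**
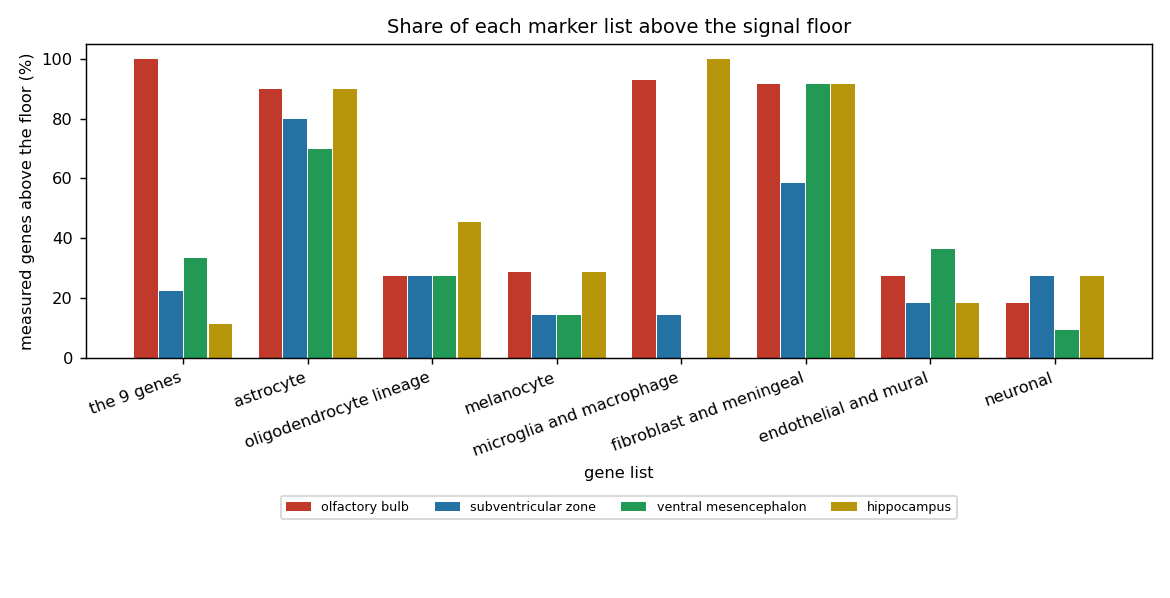
Percentage of the measured genes of each list (x axis) whose signal was above the floor in each culture; bars start at 0 and each is 1 array. The 9 genes are all above the floor in the olfactory bulb, while the microglial list is above it in the bulb (13 of 14) and the hippocampus (14 of 14).

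The genes most like each of the 9 were found by the Euclidean distance between floored log2 profiles over the 4 cultures, each centred on its own mean; 4 arrays are few, and any gene above the floor in the bulb alone at a like level comes close. Nearest to Ngfr were Rgs5 (distance 0.05), a pericyte regulator of G-protein signalling with 655 in the bulb, Btg2 and Stk39. Nearest to L1cam were Tfap2a (0.05), the ubiquitin ligase gene Fbxo32 and Egfl8. Nearest to Sox10 were the clock-output factor Hlf (0.02), Rpl39l and the prostaglandin receptor gene Ptgdr. Vtn was closest to Tfap2b (0.19), to the astrocyte and meningeal connexin gene Gjb6 (0.26), with 1313 in the bulb, and to the netrin receptor gene Unc5c (0.33). Aspa was nearest to Arhgap20, Prkg2 and the potassium channel gene Kcna1, all within 0.01, and Gfra3 to Prss35 (0.05), Cpz and Kcna1. Among the 9 genes themselves the closest pairs were Aspa with Gfra3 (0.07) and Sox10 with Aspa (0.21).

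Egr2 and Pmp22 had other company. Egr2 was nearest to the interferon-induced GTPase gene Irgm1 (0.32), which read 4968 for the ventral mesencephalon against 1430.5 in the bulb, and to Timp1 (0.39), the metalloproteinase inhibitor, and Tinagl1 (0.50). Pmp22 was nearest to Fabp5 (0.02), a fatty acid-binding protein, with 7786 for the hippocampus, 5197 in the bulb, 3828 for the subventricular zone and 2352 for the ventral mesencephalon. The lysophosphatidic acid receptor gene Lpar1 (0.25) and Tmem50b (0.21) followed.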

How the data were processed

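RNA of 4 cultures was hybridised to 1 Affymetrix mouse array each, from 2 ug of total RNA per the labels' protocols. The deposited intensity per probe set was made by the authors with GCOS 1.4, per the submitters' processing notes; the algorithm and scaling settings are not stated there. Values were used as deposited. The number of arrays limits the precision.

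Genes were named from the platform annotation, with symbols updated through gene identifiers of RefSeq (GRCm38.p6): 20380 probe sets had 1 gene and 20351 matched. A gene was represented by its probe set of highest mean floored log2 signal. Signals below 122.1 were raised to it. A gene was called higher (lower) in a region when at least 2-fold above the highest (below the lowest) of the other 3. With 1 array per region no test was made. The 9 genes and the lists were chosen with earlier results of these data known. Named from the lists were some of the genes called in a region, some partners above the floor and the nearest profiles. Not every called gene or partner above the floor is named. Other genes below the floor, marker genes and those plotted were chosen after their values were seen. Alternatives were 3 floors or pseudocounts (30th and 70th percentile, log2 of signal plus 16), the mean over probe sets, 2 scalings, 2 thresholds and leaving out each region. Python 3.11.15, numpy 2.4.6, pandas 2.3.3 and matplotlib 3.10.9 were used.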

Additional observations from a re-analysis of the deposited data

How the results depend on the processing

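The 6 genes higher in the olfactory bulb stayed 6 or 7 under every alternative run but 3: 1 with the 70th-percentile floor, 3 with the mean over probe sets and 3 at a 3-fold threshold. Each median was taken over those of the 9 genes above the floor in use on the arrays kept, so the genes can differ between alternatives. The bulb median of 1.30 was 3.07 with the 30th-percentile floor, 2.74 with no floor and 0.77 with the mean over probe sets. It was 0.37 with the 70th-percentile floor, where Sox10, Aspa, Gfra3 and Erbb3 lay at the floor everywhere and were left out. The subventricular zone median of -0.43 was -1.39 with the 30th-percentile floor, -1.33 with no floor, -0.74 without the ventral mesencephalon array and -0.77 without the hippocampus array. The ventral mesencephalon median of -0.44 was -0.91 with the 30th-percentile floor and -0.77 without the array of either the subventricular zone or the hippocampus. Without the bulb array it was 0.37, over Ngfr, Egr2 and Pmp22 alone. The hippocampus median of -0.51 was -1.06 with the 30th-percentile floor and -0.95 with no floor. Without the bulb array it was -0.19, again over Ngfr, Egr2 and Pmp22 alone. One gene was lower in the ventral mesencephalon at 1.5-fold and without the subventricular zone array (1 against 0), and 1 was higher in the hippocampus at 1.5-fold and without the bulb array (1 against 0), Pmp22 in each case. The 1 gene lower in the hippocampus, Egr2, became 0 with the 70th-percentile floor, the mean over probe sets and a 3-fold threshold. The raised floor and the higher threshold leave fewer genes able to be called; otherwise the cause was not tested. Quantile normalization and scaling to equal medians changed no count; equal medians moved the median of all genes in the hippocampus by -0.17. Gaps of Egr2 in the ventral mesencephalon (1.51 to 1.83) and Vtn in the bulb (1.62 to 3.83) stayed past 2-fold under all 9 alternatives run. No paired analysis was possible because each region has 1 array and they share 1 replicate number.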
